A study of Homo sapiens with 6 samples.

Results

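The mutually exclusive exon (MXE) events examined here were the deeply read pairs whose 2 exons differ in length. A pair was chosen by 2 values of the deposited MXE table: the exon lengths had to differ by more than 3 nt, and the junction reads had to average at least 1000 over the 6 libraries. Of 9711 MXE events, 655 met both conditions, and all 655 were among the 8791 events that were tested, which needed 10 or more reads on average. The pairs lie in 330 genes and hold 968 different exons, and 403 of them share an exon with another of the pairs. The members are therefore not independent of each other, and genes such as GAS5 (11 pairs), UBA2 (10 pairs) and BLVRB (9 pairs) count several times. The selection was made on total reads, so the depth of the pairs is a description and not a finding, whereas the division of the reads between the exons and between the groups was not used by the rule.

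NCI-H1975 is an established human lung adenocarcinoma (LUAD) cell line. The control cells received the PCDNA3.1 plasmid and the SAM68 cells received PCDNA3.1-SAM68, in both cases 2 µg per well with lipofectamine for 48 h. Each group comprised 3 biological replicates, sequenced as paired-end RNA-seq. Both groups are thus transfected cells, the added SAM68 came from a transient plasmid, and cells of a well with and without plasmid cannot be told apart in bulk RNA, nor can fewer cells of a kind and less RNA per cell. The pairs held 58.8% to 60.1% of the 4034721 to 4692048 MXE junction reads per library. Of 15 marker genes of LUAD and other cell types, only KRT8 had a skipped exon (SE) event with enough reads (531 reads per 1000000, rpm, in 1 control library and 235 to 259 in the other 5), so the cell type could hardly be examined in these tables. Any 2 libraries differed by more than sampling noise (chi-square per degree of freedom 3.14 to 4.49 for libraries of the same group, 4.40 to 6.25 for libraries of different groups), and all 6 were kept.

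In true MXE splicing, a transcript carries one or the other of neighbouring exons and rarely both or neither, as in tropomyosin, actinin and pyruvate kinase genes, where the exons are often duplicates of each other and of like length. Exons of unequal length can shift the reading frame when they replace each other. SAM68, encoded by KHDRBS1, is an RNA-binding protein of the STAR family that recognizes short A- and U-rich motifs such as UUAA and UAAA and takes part in exon choice. For each pair, rMATS counts reads joining the upstream exon of the pair (here the 5ʹ exon) to its flanking exons, and reads joining the downstream exon (the 3ʹ exon) to the same flanking exons. PSI is the share of the 5ʹ form in these reads in percent, after the counts of both forms are scaled by their effective lengths. ∆PSI is SAM68 minus control in percentage points. A read that joins the 2 exons of a pair to each other counts for neither form. A transcript with both exons between these flanking exons can give reads to both forms. PSI is then a share of reads and not the share of transcripts that use the 5ʹ exon.

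The sequences of 5 pairs that passed the test below are shown. The first 4 have the largest changes among the pairs with both exons coding, and HMGA2 is added because its gene reads changed as well. All were read from hg38 (GRCh38) on the strand of the gene, 5ʹ to 3ʹ. Capitals mark TTAA and TAAA, the DNA letters of the SAM68-type motifs.
KHDRBS1 exon 5ʹ (chr1:32036910-32037043, + strand, 134 nt): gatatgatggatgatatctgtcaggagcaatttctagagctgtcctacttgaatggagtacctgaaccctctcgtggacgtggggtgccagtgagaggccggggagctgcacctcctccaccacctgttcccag
KHDRBS1 exon 3ʹ (chr1:32039515-32039573, + strand, 59 nt): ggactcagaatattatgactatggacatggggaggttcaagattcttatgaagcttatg
EZR exon 5ʹ (chr6:158789288-158789371, - strand, 84 nt): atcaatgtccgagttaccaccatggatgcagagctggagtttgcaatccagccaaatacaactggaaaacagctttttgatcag
EZR exon 3ʹ (chr6:158787108-158787203, - strand, 96 nt): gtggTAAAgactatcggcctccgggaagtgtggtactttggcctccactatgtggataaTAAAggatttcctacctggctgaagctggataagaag
ARPC2 exon 5ʹ (chr2:218225920-218225954, + strand, 35 nt): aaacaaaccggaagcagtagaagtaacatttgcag
ARPC2 exon 3ʹ (chr2:218245420-218245546, + strand, 127 nt): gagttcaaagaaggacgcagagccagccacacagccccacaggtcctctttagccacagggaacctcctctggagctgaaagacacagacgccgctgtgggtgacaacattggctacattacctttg
RAP1B exon 5ʹ (chr12:68651995-68652051, + strand, 57 nt): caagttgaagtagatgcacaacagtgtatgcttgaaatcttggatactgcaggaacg
RAP1B exon 3ʹ (chr12:68654112-68654252, + strand, 141 nt): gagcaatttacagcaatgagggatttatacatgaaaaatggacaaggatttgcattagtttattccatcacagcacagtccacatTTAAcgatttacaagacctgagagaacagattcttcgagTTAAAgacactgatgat
HMGA2 exon 5ʹ (chr12:65828001-65828087, + strand, 87 nt): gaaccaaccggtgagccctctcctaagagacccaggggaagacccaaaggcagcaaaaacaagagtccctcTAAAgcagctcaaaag
HMGA2 exon 3ʹ (chr12:65838519-65838569, + strand, 51 nt): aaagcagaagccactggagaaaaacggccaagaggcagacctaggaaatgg
The exons of the KHDRBS1 and ARPC2 pairs hold neither motif, the 3ʹ exon of EZR holds 2 and that of RAP1B holds 3, counting overlapping matches separately. The HMGA2 pair has 1 match, in its 5ʹ exon. None of these is shown to be a site of SAM68.

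A further 3 pairs, chosen after their values were seen, are shown as examples that did not pass the test: APP, the amyloid precursor protein, ACTN4, an actin crosslinker, and TPM3, a tropomyosin. No annotated transcript carries both ACTN4 exons, whereas 3 carry both APP exons and 7 carry both TPM3 exons.
APP exon 5ʹ (chr21:26000015-26000182, - strand, 168 nt): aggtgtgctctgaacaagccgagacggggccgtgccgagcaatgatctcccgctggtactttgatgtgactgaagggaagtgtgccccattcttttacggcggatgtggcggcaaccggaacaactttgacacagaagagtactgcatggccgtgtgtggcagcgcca
APP exon 3ʹ (chr21:25997360-25997416, - strand, 57 nt): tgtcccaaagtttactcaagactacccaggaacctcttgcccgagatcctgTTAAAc
ACTN4 exon 5ʹ (chr19:38727946-38728026, + strand, 81 nt): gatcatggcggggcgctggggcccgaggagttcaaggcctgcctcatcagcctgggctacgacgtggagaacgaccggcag
ACTN4 exon 3ʹ (chr19:38728316-38728381, + strand, 66 nt): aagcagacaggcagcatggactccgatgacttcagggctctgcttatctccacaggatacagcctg
TPM3 exon 5ʹ (chr1:154172029-154172104, - strand, 76 nt): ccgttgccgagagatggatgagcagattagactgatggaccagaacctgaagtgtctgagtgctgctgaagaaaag
TPM3 exon 3ʹ (chr1:154170649-154170711, - strand, 63 nt): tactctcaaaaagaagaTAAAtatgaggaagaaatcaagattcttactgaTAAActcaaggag
TTAA and TAAA occur in the 3ʹ exons of APP and TPM3, with 2 matches in each. The lengths of these pairs differ by 111, 15 and 13 nt.

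The annotation placed most of these pairs in 1 transcript rather than in 2. In GENCODE 44, both exons belong to the canonical transcript in 515 of the 655 pairs (78.6%), compared with 6419 of the other 8136 tested pairs (78.9%). Another 65 pairs have the 5ʹ exon only, 65 have the 3ʹ exon only, and 10 have neither. Counting every annotated transcript, 630 pairs have a transcript that carries both exons, and 25 have none. Within the 515 pairs, the exons are neighbours in the canonical transcript in 442, 1 exon lies between them in 55, and more lie between them in 18. At the genome level, 654 of the 655 pairs have AG before and GT or GC after both exons.

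The MXE level followed this annotation. Where both exons are canonical, the median PSI of the control group was 52.7% (n = 515 pairs), which means that reads joined either exon to the flanking exons about equally often. It was 98.6% where the 5ʹ exon only is canonical (n = 65) and 0.944% where the 3ʹ exon only is (n = 65). The canonical exon was thus the one with most reads in the typical pair of each class. Of the 655 pairs, 107 had a PSI below 10%, 470 lay between 10% and 90%, and 78 lay above 90%. The both-exon class supplied 420 of the 470 intermediate pairs.

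The SE events of the same exons gave a second readout, which shares junction reads with the MXE events. SE inclusion is the share of transcripts that carry an exon rather than skip it. Where an exon had several SE events with different flanking exons, the one with most reads was taken. Both exons had an SE event in 609 pairs, and in 524 of them both exons were included at 95% or more. In the both-exon class this held for 451 of 483 pairs. It held for 34 of 57 pairs with the 5ʹ exon only, 36 of 60 with the 3ʹ exon only and 3 of 9 with neither. In most pairs of the both-exon class, MXE reads of either form thus stood beside SE reads in which both exons were nearly always included.

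**Figure D1:**
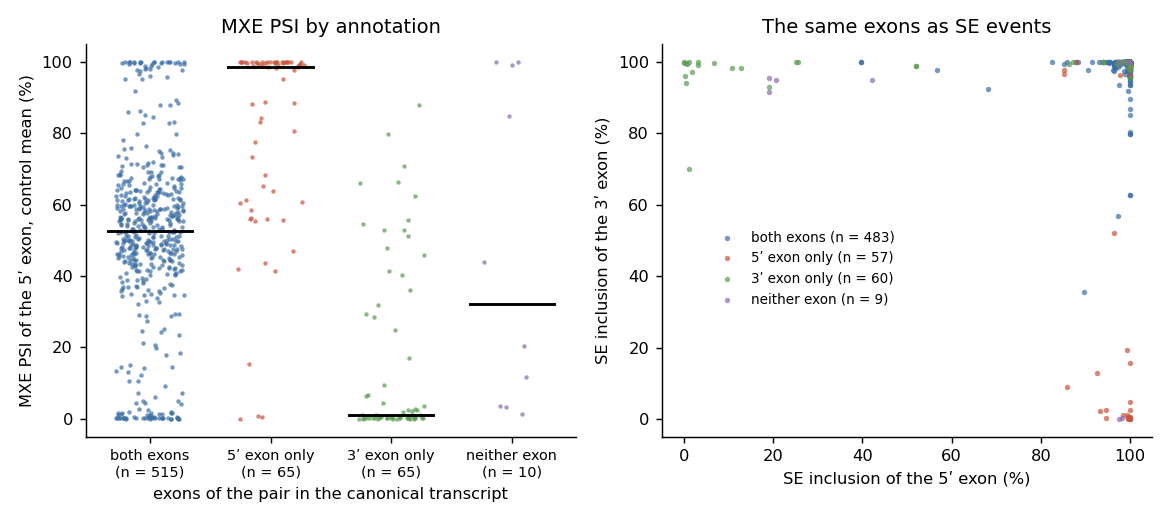
The left panel plots the control mean of the MXE PSI (%) of each pair by the presence of its exons in the canonical transcript, with a line at the median, and the right panel plots SE inclusion (%) of the 3ʹ exon against that of the 5ʹ exon for the 609 pairs with both events. Pairs with both exons canonical centre on 52.7% PSI, and 451 of their 483 points lie in the upper right corner at 95% or more on both axes.

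ACTN4, APP, RACK1 and TPM3 show the range. For the canonical exon 19 of ACTN4, PSI was 99.1%, 99.2% and 99.2% in control and 99.1%, 99.6% and 98.3% in SAM68 cells, and no annotated transcript carries it together with its 66-nt alternative. SE inclusion was 99.9% for the canonical exon and 0.494% for the alternative one. The deepest pair of RACK1, a ribosome-bound scaffold, had a like level, with 99.9% ± 0.0206 (SD, n = 3) in control cells and 99.9% ± 0.0113 (SD, n = 3) in SAM68 cells. In APP, exon 7 (168 nt) was read against exon 8 (57 nt), at 90.3%, 89.0% and 88.4% in control and 87.9%, 85.5% and 88.4% in SAM68 libraries, the highest SAM68 library lying just under the lowest control library. Here each exon is itself skipped in part, with an SE inclusion of 89.6% for exon 7 and 35.5% for exon 8. The ∆PSI of this APP pair was -1.98 points (95% interval -4.22 to 0.26, adjusted p = 0.650 from the quasi-binomial test). The second APP pair, exons 2 and 3, had -6.16 points (adjusted p = 0.0788). The TPM3 pair had a PSI of 45.7% ± 1.02 (SD, n = 3) in control and 47.3% ± 1.65 (SD, n = 3) in SAM68 cells, and its groups overlapped (∆PSI 1.55 points, adjusted p = 0.830).

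Unequal lengths were corrected through the effective length, which rMATS caps for longer exons. The shorter exon of a pair had a median of 93 nt and the longer one 144 nt, with a difference of 4 to 894 nt (median 42 nt). The 3ʹ exon was the longer one in 324 pairs and the 5ʹ exon in 331. The effective lengths were equal in 103 pairs, since both exons reached the cap, and the longer one exceeded the shorter by up to 1.83 times. PSI and the raw share of reads differed by a median of 1.25 points and by at most 11.7 points. In 80 pairs the correction was 5 points or more.

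Replacing one exon by the other would keep the frame where the length difference is a multiple of 3. This held for 264 of the 655 pairs (40.3%), compared with 2816 of the 7657 unequal pairs with 10 to under 1000 mean reads (36.8%). Both exons were themselves multiples of 3 in 154 pairs (23.5%), against 1495 (19.5%) of the less deeply read pairs. Both exons lay wholly within coding sequence in 521 pairs, but the shares above count all pairs by length alone, coding or not. They do not show that either exon replaces the other. These shares were not tested against each other, because pairs of 1 gene share exons.

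At the level of the whole group, the PSI of these pairs moved little with SAM68. The median absolute ∆PSI was 1.10 points, compared with 2.59 points over all 8791 tested MXE events, whose spread between libraries was also larger. The median SD within a group was 1.02 points in control and 1.21 points in SAM68 libraries, against 3.40 and 3.60 points over all tested events. The ∆PSI was above 0 in 316 pairs and below 0 in 339, under 1 point in size in 311 and at least 5 points in 43. The 95% interval of ∆PSI reached a median of 2.88 points to either side. It lay within 10 points of 0 in 641 pairs and within 5 points in 429, so a shift of 10 points or more is outside the interval for all but 14 pairs.

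A pair was called when the quasi-binomial test with Benjamini-Hochberg adjustment over all tested MXE events gave an adjusted p under 0.05 and ∆PSI was at least 10 points in size. By this rule 2 of the 655 pairs were called, KHDRBS1 and EZR, where 0.125% of all tested MXE events were called. By the adjusted p alone, 14 of the 655 pairs passed (2.14%), where 0.284% of all tested events passed. Among the 7657 unequal pairs of 10 to under 1000 reads 6 passed, and among the 34 deep pairs of similar length 3 passed. The depth differs between these sets by the rule, and their shares were not compared by a test. Unadjusted p-values were under 0.05 in 132 pairs and in 760 of all tested events. The groups did not overlap in 149 of the 655 pairs (22.7%), with SAM68 higher in 75 and lower in 74, where 12% of all tested events did not overlap.

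These calls depended on how the spread between libraries was estimated. In 9 of the 14 pairs the spread of the pair itself was larger than the moderated one used in the test. When the larger of both was used, an alternative chosen after seeing the data, only KHDRBS1 still passed. With each library left out in turn, KHDRBS1 passed in 3 of 6 fits and the other 13 pairs in none (adjusted p of 0.538 to 0.722), while their ∆PSI kept its sign. None of the 14 passed with unmoderated spreads, or when limma was run on logit PSI.

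**Figure D2:**
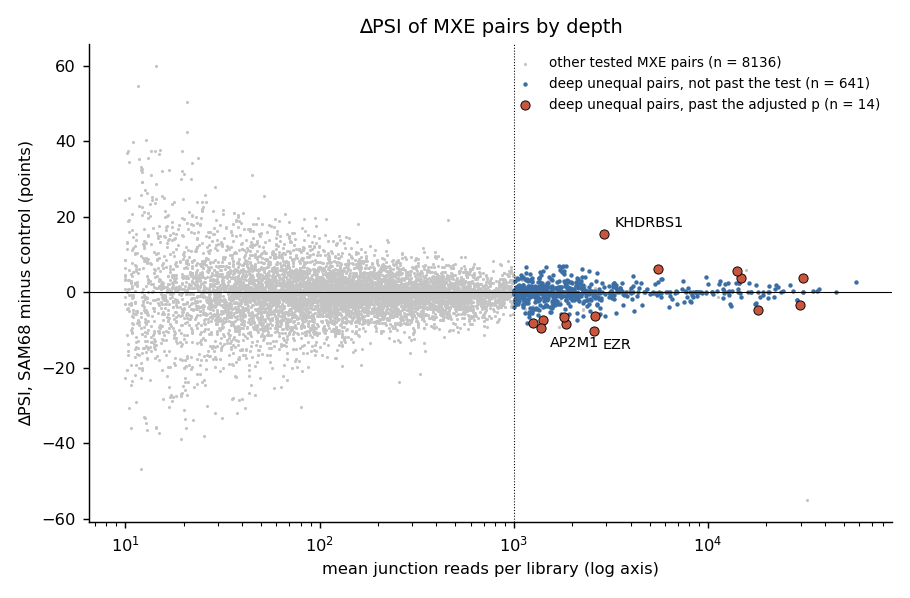
∆PSI (SAM68 minus control, points) is plotted against mean junction reads per library on a log axis for the 8791 tested MXE events. The 655 pairs begin at the dotted line at 1000 reads, the 14 that passed the adjusted p are outlined, and those with a ∆PSI over 9 points in size (KHDRBS1, EZR and AP2M1) are named. One deep event outside the group, in PKM and with exons of similar length, lies at -55.2 points.

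KHDRBS1 (ENSG00000121774.17), the gene of SAM68 itself, had the largest ∆PSI of the group. Its pair joins exon 5 (134 nt) and exon 8 (59 nt), both coding and both canonical. PSI of exon 5 was 70.4%, 67.1% and 67.2% with the empty plasmid and 84.2%, 83.3% and 83.5% with SAM68. All SAM68 libraries lay above all control libraries. The mean rose from 68.2% ± 1.91 to 83.7% ± 0.451 (SD, n = 3 each), a ∆PSI of 15.4 points (standard error 1.54, adjusted p = 3.52e-08 from the quasi-binomial test). The adjusted p was 0.252 without control library 2, 0.124 without control library 3 and 0.0890 without SAM68 library 1. It was 0.0252 to 0.0378 without any one of the other libraries, and ∆PSI stayed between 14.9 and 16.5 points.

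Both forms of this pair gained reads, but unequally. Reads of exon 5 numbered 933, 1033 and 984 in control and 4335, 3621 and 3867 in SAM68 libraries. Reads of exon 8 numbered 283, 366 and 348 in control and 589, 524 and 552 in SAM68 libraries. Scaled to rpm, which is taken per 1000000 of the gene reads of a library (the reads of 1 SE event per gene, the one with most reads), the exon 5 form was 4.21 times and the exon 8 form 1.76 times its control mean. In the other 3 KHDRBS1 pairs the ∆PSI ran from -0.93 to 1.65 points, and the lowest was -1.49 to -0.34 points with 1 library left out. In the pair of exons 2 and 4, the forms were 4.04 and 4.21 times control and PSI was 36.8% ± 1.15 against 35.9% ± 0.610 (SD, n = 3 each). In the pair of exons 5 and 7, the forms were 4.20 and 3.84 times control. In the pair of exons 4 and 5, whose PSI was 1.70% and 0.888%, they were 1.90 and 3.67 times control. Of the 8 forms, those of exon 8 and of exon 4 in the last pair rose least. SE inclusion was 99.9% for exon 5 and 99.8% for exon 8.

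For the gene as a whole, the SE event with most reads gave 318, 336 and 323 rpm in control and 1260, 1289 and 1307 rpm in SAM68 libraries. This was a rise of 1.98 on the log2 scale (standard error 0.048), with an adjusted p of 9.68e-23 from limma. KHDRBS1 was the only gene called among the 330 genes, where 0.0506% of 9872 genes were called at an adjusted p under 0.05 and a log2 fold change of at least 1. Reads from the plasmid copy and from the chromosomal gene cannot be told apart in these junction counts, for the gene or for its pairs.

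EZR (ENSG00000092820.17) encodes ezrin, which links the plasma membrane to actin. Its pair is exon 3 (84 nt) and exon 4 (96 nt), neighbours in the canonical transcript and both coding. PSI of exon 3 was 57.2%, 54.6% and 61.1% with the empty plasmid and 47.7%, 51.0% and 43.1% with SAM68. The groups did not overlap, but the libraries spread widely within each. ∆PSI was -10.3 points (standard error 1.72, 95% interval -13.8 to -6.83, adjusted p = 0.00220). The adjusted p was 0.290 with the larger of both spreads. It was 0.538 to 0.722 without any one library, and ∆PSI was then -12.2 to -8.24 points. Reads of the exon 3 form fell to 0.747 times control and those of the exon 4 form were 1.13 times control. SE inclusion was 99.3% for exon 4 and higher for exon 3, and the other EZR pair had a ∆PSI of -1.22 points.

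AP2M1 and ARPC2 came next in size. AP2M1 encodes the mu subunit of the AP2 clathrin adaptor, and its pair is exon 2 (117 nt, partly coding) and exon 3 (266 nt). PSI of AP2M1 exon 2 was 42.1%, 40.9% and 42.1% in control and 31.8%, 36.2% and 28.4% in SAM68 libraries, without overlap. ∆PSI was -9.59 points (95% interval -13.3 to -5.88, adjusted p = 0.00977). ARPC2 is a subunit of the ARP2/3 complex that branches actin filaments, and its pair is exon 3 (35 nt) and the distant exon 8 (127 nt). PSI of ARPC2 exon 3 was 34.2%, 31.3% and 33.8% in control and 23.8%, 28.4% and 22.3% in SAM68 libraries. All SAM68 libraries were below all control libraries, with a ∆PSI of -8.29 points (95% interval -11.8 to -4.81, adjusted p = 0.0193). By the raw share of reads, without the length correction, it was -6.61 points.

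**Figure D3:**
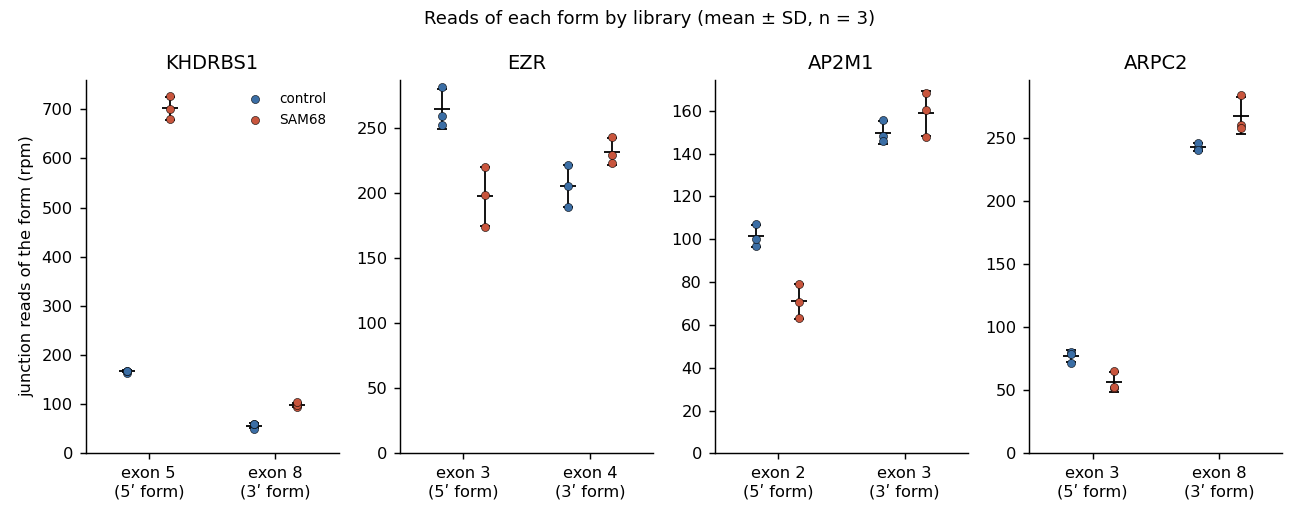
Junction reads of the 5ʹ and the 3ʹ form of 4 pairs are plotted in rpm by library, with the mean and SD (n = 3). In KHDRBS1 both forms are higher with SAM68, at 4.21 and 1.76 times control, whereas in EZR, AP2M1 and ARPC2 the 5ʹ form is lower, at 0.747, 0.700 and 0.734 times control.

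RAP1B, RBM42 and HMGA2 changed in the same direction. RAP1B is a RAS-like GTPase of cell adhesion, and PSI of its exon 4 (57 nt) against exon 5 (141 nt) was 62.4%, 62.6% and 59.9% in control and 55.1%, 54.8% and 51.0% in SAM68 libraries. Its ∆PSI was -8.01 points (adjusted p = 0.0451). RBM42 is an RNA-binding protein, and PSI of exon 3 (85 nt) against exon 4 (75 nt) was 58.8%, 58.6% and 57.6% in control and 51.8%, 50.4% and 50.4% in SAM68 libraries. These libraries were close together within each group, with a ∆PSI of -7.47 points (adjusted p = 0.0476). HMGA2 is a chromatin protein, and PSI of exon 2 (87 nt) against exon 3 (51 nt) was 66.7%, 66.2% and 66.8% in control and 59.3%, 61.4% and 59.7% in SAM68 libraries. Its ∆PSI was -6.40 points (adjusted p = 0.0246), and its gene reads fell by 0.30 on the log2 scale (adjusted p = 0.0168 from limma). The second HMGA2 pair, which shares the 51-nt exon, had a ∆PSI of 3.87 points (adjusted p = 0.511).

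Of the remaining pairs past the adjusted p, those given here were named after their values were seen, apart from RPS18, which the naming rule took for its depth. PSMB6, a catalytic subunit of the proteasome, fell from 20.3%, 20.9% and 22.2% to 14.7%, 16.5% and 12.5% (∆PSI -6.56 points, adjusted p = 0.0193). CALM2, one of the calmodulin genes, rose from 65.0%, 65.6% and 61.4% to 66.5%, 69.6% and 74.2% (∆PSI 6.08 points, adjusted p = 0.0476), while its gene reads fell by 0.24 on the log2 scale (adjusted p = 0.0216 from limma). The CALM2 groups were separated by less than 1 SD of either group at their nearest libraries, and ∆PSI was 4.02 points without SAM68 library 3 and 4.77 to 7.88 points without any one of the others. Ribosomal proteins are encoded by RPSA (5.53 points), RPS18 (3.90 points) and RPL7A (3.85 points), which rose, and by RPL13A (-3.23 points), which fell, with adjusted p-values of 0.00675, 0.0142, 0.0476 and 0.0177.

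RPS18, the deepest of the 14, had a PSI of 59.7%, 61.0% and 60.7% in control and 62.8%, 64.0% and 66.3% in SAM68 libraries at a mean of 30838 reads. Ribosomal protein genes, GAPDH, PPIA, HNRNPA1 and CALM2 have near-identical copies elsewhere in the genome, and how reads with several matches were counted is not given in the sources used here, so their counts are uncertain.

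**Figure D4:**
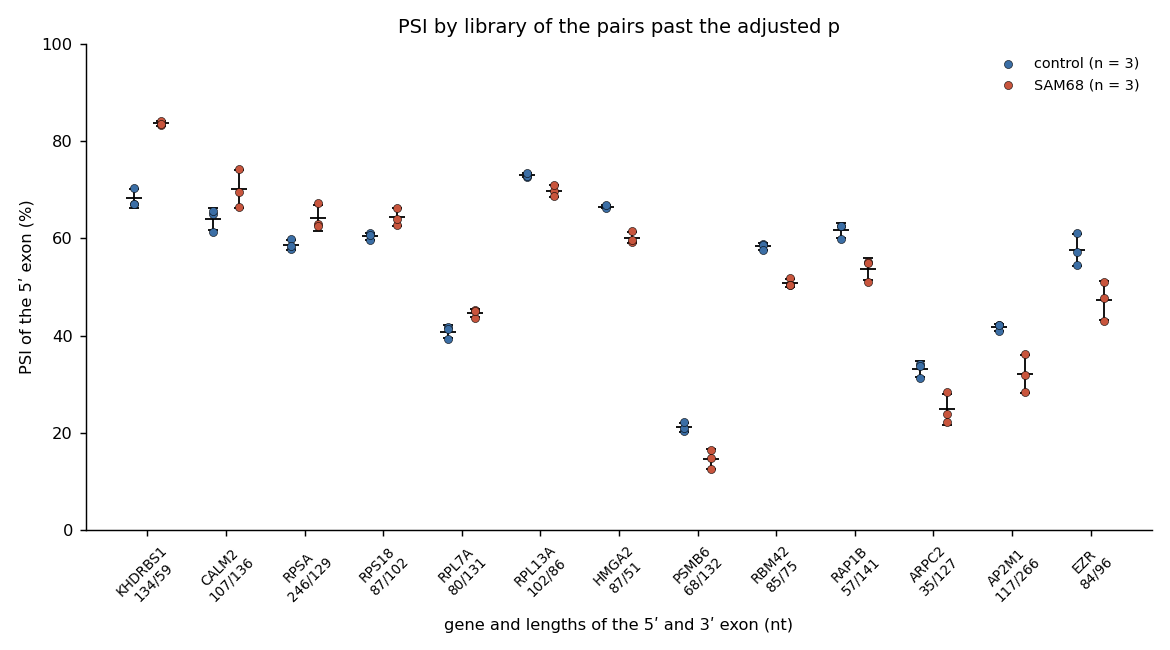
PSI (%) of the 5ʹ exon is plotted by library for 13 of the 14 pairs that passed the adjusted p, in order of ∆PSI, with the mean and SD of each group (n = 3). The 5 pairs on the left rose, by 3.85 to 15.4 points, the 8 on the right fell, by 3.23 to 10.3 points, and the 6 libraries of each pair fall into 2 groups that do not overlap.

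The annotation of the 14 pairs was set beside that of the whole group. Both exons are in the canonical transcript in all 14 pairs, as in 78.6% of the 655 pairs and in 420 of the 470 pairs with a PSI of 10% to 90%. Of the 420, 14 passed (3.33%), and of the 50 other pairs in that PSI range 0 passed, too few to tell the classes apart, and the difference was not tested. The median absolute ∆PSI was 1.77 points in the 420 and 1.51 points in the 50, in which the largest was 5.49 points, in SYNCRIP, a name chosen after the values were seen. Among all 140 pairs without both exons in the canonical transcript, 17 did not overlap between groups (12.1%), near the 12% of all tested events. The exons are neighbours in 12 of the 14 pairs (85.7%), near the share of 442 in 515 (85.8%) in the both-exon class, and the KHDRBS1 and ARPC2 pairs are the exceptions. The direction of ∆PSI fixes how the forms move relative to each other, so their own levels are given as a description. The 5ʹ form was 0.700 to 0.976 times control and the 3ʹ form 0.963 to 1.22 times control in the 9 falling pairs. In the 4 rising pairs other than KHDRBS1 the 5ʹ form was 1.01 to 1.11 times and the 3ʹ form 0.760 to 0.916 times control.

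No change was called in the SE events of these exons. Of the 14 pairs, 12 had SE events for both exons, and the 26 exons with such an event were included at 99.1% or more. The ∆PSI of the 26 SE events was at most 0.604 points in size, with adjusted p-values of 0.518 to 0.995. The larger ∆PSI of the MXE pairs was therefore not matched by a change of like size in the SE inclusion of these exons. Over all 655 pairs, 1506 SE events of their exons were tested. None of the 1506 was called, where 0.0105% of 47450 SE events were called. At that share, a count of 0 is no result about these exons. An unadjusted p under 0.05 was found in 110 of the 1506 events and in 4076 of all SE events, and a likelihood ratio test that pooled the counts of each group called 6 of the 1506, where it called 1.74% of all SE events.

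By the role of their genes, translation was the largest class, with 116 pairs in 57 genes, of which 3 rose and 2 fell by the adjusted p, and a median absolute ∆PSI of 0.717 points. It held 74 pairs of ribosomal protein genes, at a median of 12206 reads. The deepest were RPS19, at 99.7% ± 0.0630 and 99.7% ± 0.0382 (SD, n = 3 each), and RPS16, at 78.1% ± 0.781 and 78.9% ± 1.69. In both the difference was within the spread between libraries. The largest ∆PSI of the class was that of EIF3I, a translation initiation factor subunit, at -6.17 points (95% interval -9.14 to -3.20, adjusted p = 0.0711), with no overlap between groups.

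Protein quality and turnover held 81 pairs in 38 genes, with 1 fall, in PSMB6. Its largest ∆PSI was that of UBA2, a subunit of the SUMO-activating enzyme, at 6.87 points (95% interval 3.31 to 10.4, adjusted p = 0.0788). PPIA, the prolyl isomerase cyclophilin A and the deepest of the class, had 56.3% ± 0.322 in control and 56.6% ± 2.15 in SAM68 cells (SD, n = 3 each). Metabolism and mitochondria held 61 pairs in 34 genes, of which none passed the adjusted p. GAPDH, a glycolytic enzyme and the deepest pair of all at 57743 reads, had a PSI of 42.8%, 44.5% and 43.1% in control and 46.0%, 44.9% and 47.8% in SAM68 libraries. The groups did not overlap, and the ∆PSI of 2.77 points missed the adjusted p (0.0711). PGD, an enzyme of the pentose phosphate pathway, had 6.72 points (95% interval 2.84 to 10.6, adjusted p = 0.205).

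Signalling held 36 pairs in 16 genes, with 1 rise, in CALM2. CDK4, a cell cycle kinase, had a ∆PSI of 6.97 points (95% interval 3.18 to 10.8, adjusted p = 0.143) and overlapping groups. Cytoskeleton and adhesion held 35 pairs in 24 genes, with 2 falls, in EZR and ARPC2. VIM, the intermediate filament protein vimentin and the deepest of the class, had 42.1% ± 0.597 in control and 42.5% ± 0.599 in SAM68 cells (SD, n = 3 each). RNA processing held 34 pairs in 17 genes, with 1 fall, in RBM42. HNRNPA1, a splicing repressor, had 43.7% ± 1.10 in control and 44.5% ± 1.18 in SAM68 cells, a ∆PSI of 0.76 points (95% interval -1.09 to 2.62, adjusted p = 0.845). Without SAM68 library 2 it was 0.08 points, without control library 1 it was 0.13 points, and without any one of the others 1.03 to 1.13 points.

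Membrane traffic held 30 pairs in 17 genes, with 1 fall, in AP2M1, and the largest median absolute ∆PSI of these classes (2.52 points). TMEM147, a membrane protein and the deepest of that class, had a ∆PSI of 3.93 points (95% interval 0.72 to 7.15, adjusted p = 0.477), and of 2.36 points without SAM68 library 3 and 3.38 to 5.29 points without any one of the others. Chromatin and transcription held 15 pairs in 8 genes, with 1 fall, in HMGA2. HMGA1, a relative of HMGA2, had 79.7% ± 1.19 in control and 77.7% ± 0.620 in SAM68 cells, a ∆PSI of -2.04 points (adjusted p = 0.255). The 243 pairs of the other 118 genes, which were in no class, included 1 fall, in RAP1B. The median over all 655 pairs was 1.10 points, and no class was tested against another.

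In the gene reads of the 330 genes, besides KHDRBS1, which was called, 11 genes passed the adjusted p without reaching a log2 fold change of 1, and 12 passed in all (3.64%), where 0.466% of all 9872 genes passed. The genes were taken for their depth by the rule, and these shares were not compared by a test. Of the 14 genes with a pair past the adjusted p of the MXE test, KHDRBS1, HMGA2 and CALM2 were among these 12. The EZR gene had 671 ± 15.6 rpm in control and 678 ± 19.4 rpm in SAM68 cells (SD, n = 3 each), and the RAP1B gene 210 ± 10.7 and 212 ± 21.1 rpm, differences within the spread between libraries.

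TTAA and TAAA were searched on the sense strand in 100 nt on each side of both exons (400 nt per pair), with overlapping matches counted separately. At least 1 match was present in 532 of the 655 pairs (81.2%), in 12 of the 14 pairs past the adjusted p, and in 85.3% of all tested MXE events. The median number was 3 per pair in the group, 4 in the 14 pairs and 5 over all tested events. Within the exons themselves there were 4.76 matches per 1000 nt in the group, 4.79 in the 14 pairs and 6.39 over all tested events. The RAP1B pair had the most of the 14, with 17 matches, and the AP2M1 and RPL13A pairs had none.

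The thresholds of the rule cut through a continuous range. The pairs just inside the depth limit were GSTP1 (1002 mean reads), SNHG5 (1004) and CS (1004), with a ∆PSI of 0.25, -0.25 and -3.99 points. Those just outside were MAEA (999), BAG6 (997) and H2AFV (997), with 4.28, 0.73 and -2.48 points. By length, 6 pairs differ by 4 nt, the deepest in COX7C, CCT2 and MAPKAP1, with a ∆PSI of 0.04, -1.19 and -2.75 points. Another 10 deep pairs differ by 3 nt and were left out, the deepest in SLC25A3, AC023509.1 and NAP1L1, with 0.14, 0.94 and -0.03 points.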

How the data were processed

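RNA of 3 control and 3 SAM68 libraries was sequenced, and the authors deposited rMATS tables, of which the MXE and SE tables were used. Per the submitters' processing notes and the methods, bases were called with CASAVA 1.4, reads filtered, checked with fastp 0.20.0, trimmed by 18 bases at their start and aligned with HISAT2 2.1.0 to GRCh38. The version of rMATS is not given in the sources used here. The deposited columns hold raw junction read counts of each form as lists of 3 values per group, effective lengths, and inclusion levels. Columns of the authors' comparison (p-values, FDR and level differences) were not used. The list given first was taken as control, as the plot of PKM in the paper names it. The lists carry no replicate numbers, and libraries are numbered by list position. The levels computed here matched the deposited ones, and the effective lengths showed that the inclusion form of an MXE event is its 5ʹ exon.

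Events with 10 or more reads on average entered a quasi-binomial model with the group as term. The Pearson dispersion was moderated along a trend with depth with squeezeVar of limma 3.58.1 (R 4.3.3), never below 1, and tested with an F test with Benjamini-Hochberg adjustment within each type. Gene reads (rpm, from the SE event with most reads per gene, per 1000000 of these) were tested with limma on log2(rpm + 0.5). Intervals of ∆PSI are 95% intervals of the model. Exact permutation tests of 3 against 3 libraries cannot go below 0.1, which all 14 pairs past the adjusted p reached. Scripts were tested on simulated data. Depth was 16951876 to 19737729 SE junction reads per library.

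The pairs, gene classes and tests were chosen with earlier results of these data known. Pairs were named if called, if of KHDRBS1, if among the 5 deepest or the 5 largest past the adjusted p, if largest or deepest in their class, or if nearest to a threshold. Other names are said to be chosen after their values were seen. Alternatives covered the dispersion, the test, the read minimum, the length correction, the limits and each library. One pair past the adjusted p is counted but not reported here by name.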

Additional observations from a re-analysis of the deposited data

How the results depend on the processing

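No paired analysis was possible because the lists carry no replicate numbers. The count of called pairs (2) was 0 with unmoderated spreads and with limma on logit PSI. It was 1 without a minimum of reads and with the larger of the own and the moderated spread (chosen after seeing the data), 10 with a limit of 5 points, and 0 to 1 with 1 library left out. It was 2 with 1 spread without a trend, with pooled counts, with a minimum of 20 reads, without the length correction, and with 1000 reads required in each group. The count past the adjusted p (14) was 42 with 1 spread without a trend (53 of all 8791 tested events), 202 with a likelihood ratio test after pooling the counts, which leaves out the spread between libraries (1036 of all tested events), and 19 with a minimum of 20 reads. It was 0 with unmoderated spreads and with limma, 1 without a minimum of reads and with the larger spread, and 0 to 1 with 1 library left out. Fits that leave out a library have fewer samples, and beyond this the cause of the lower counts was not tested. The count of called SE events (0) was 6 with pooled counts and 0 in the other alternatives. The count of called genes (1) was 1 in every alternative. No named pair changed the sign of a called ∆PSI under any alternative run. With 1 library left out, the uncalled ∆PSI of PPIA, RACK1, RPS16 and RPS19, all under 1 point in size, changed sign in at least 1 fit.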

Other observations

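The pairs whose exons are both noncoding (20 of 655) lie in GAS5 (11 pairs), LRRC75A-AS1 (3), SNHG5 (3), ZFAS1 (2) and AC023509.1 (1), names chosen after their values were seen. GAS5, SNHG5 and ZFAS1 are host genes of small nucleolar RNAs, which are released from introns. None of the 20 passed the adjusted p of the quasi-binomial test, and 3 did not overlap between groups (15%, where 12% of all tested MXE events and 22.7% of the 655 pairs did not overlap). Their ∆PSI ran from -3.05 to 3.92 points at a mean of 1004 to 7827 reads, and their control PSI from 0.330% upward, with a median of 64.5%. The 11 pairs of GAS5 share exons with each other, had a control PSI of 43.9% to 82.9%, and reached an adjusted p of 0.581 at the lowest.

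Several genes hold many pairs, and no test compared these genes. The 9 pairs of BLVRB, a reductase of biliverdin and flavins, had a ∆PSI of -3.22 to 1.10 points, and their groups overlapped in every pair. The 10 pairs of UBA2 had -2.06 to 6.87 points, with a lowest adjusted p of 0.0788, so that none passed, and 3 of the 10 did not overlap, where 12% of all tested events did not. The other 7 pairs of RPL13A stayed between -1.61 and 0.99 points, beside the 1 pair that fell by 3.23 points.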
